A study of Mus musculus with 8 samples.

Results

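RANK (Tnfrsf11a), its ligand (Tnfsf11) and the decoy receptor osteoprotegerin (Tnfrsf11b) were followed in 16 mouse mammary tumours. They are the 3 genes of the RANK ligand axis, out of 21154 genes that the arrays name, and each was found by its RefSeq accession. Each had 1 probe that matched by accession, and probes without a matching accession were not searched. Of the 3 genes, 2 passed the filter on dim probes, as did 14131 genes in all. The tumours were orthotopic pieces of MMTV-PyMT mammary tumours, in which a mammary promoter drives the polyoma middle T oncogene, growing in wild-type FVB mice. RANK-Fc, a soluble form of RANK that binds RANK ligand, was injected into the peritoneum at 10 mg/kg, 3 times a week, and the labels do not say what control mice received.

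Passage 2 held 4 groups. Tumours of the "prior and current" group were exposed to RANK-Fc before and during passage 2 (3 tumours), those of the "prior" group before it only (3 tumours) and those of the "current" group during it only (3 tumours), and the passage 2 control group had 2 tumours. Passage 1 held a RANK-Fc group of 3 tumours and a control group of 2. The ages of the mice are not given. The labels call prior treatment neoadjuvant and current treatment adjuvant, and placing the neoadjuvant doses in passage 1 rests on how their group codes are read here. Which passage 1 tumour gave rise to each passage 2 tumour is not stated, so tumours of a group may share a parent and p-values then measure only the spread between these pieces.

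RANK ligand is a membrane-bound or shed cytokine of the tumour necrosis factor family. It binds RANK on the target cell, and RANK recruits TRAF adaptors that lead to NF-kB and MAP kinase signalling. Osteoprotegerin is a secreted receptor without a membrane anchor that takes up the ligand and keeps it from RANK. In bone this axis drives the formation of osteoclasts, and in the mouse mammary gland hormone-sensing luminal cells make RANK ligand in response to progesterone, which acts on neighbouring RANK-bearing epithelial cells.

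The sequences around the annotated starts of RANK and its ligand are shown as background, and their part in the level of either RNA was not tested. Promoters of Tnfrsf11a and Tnfsf11 were matched in a table from RefSeq for GRCm38.p6, each with 250 bases before and 50 bases after the gene's start, written 5′ to 3′ along the gene's strand. Capitals mark GGGCGG, the GC box core, and TATAA, on either strand.
Tnfrsf11a, chr1:105780473-105780772, plus strand: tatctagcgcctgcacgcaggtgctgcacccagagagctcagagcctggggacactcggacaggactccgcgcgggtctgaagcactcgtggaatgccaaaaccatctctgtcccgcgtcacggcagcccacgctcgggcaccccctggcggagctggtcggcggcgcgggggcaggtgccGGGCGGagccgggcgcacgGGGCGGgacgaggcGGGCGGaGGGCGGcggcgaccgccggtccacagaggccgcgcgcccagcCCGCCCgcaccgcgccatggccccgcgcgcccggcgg
Tnfsf11, chr14:78307994-78308293, minus strand: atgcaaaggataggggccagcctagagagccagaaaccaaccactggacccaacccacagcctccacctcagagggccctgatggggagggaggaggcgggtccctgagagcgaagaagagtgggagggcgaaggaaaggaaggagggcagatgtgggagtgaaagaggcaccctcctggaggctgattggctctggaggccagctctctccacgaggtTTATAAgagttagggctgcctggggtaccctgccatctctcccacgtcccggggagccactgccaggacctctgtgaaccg
The Tnfrsf11a stretch held 5 matches to GGGCGG and 0 to TATAA, and 76.7% of its bases were G or C. The Tnfsf11 stretch held 0 matches to GGGCGG and 2 overlapping matches to TATAA, 1 on each strand, the first of them beginning 31 bases before the start, and 61.7% of its bases were G or C. Of the 32851 promoters of this length in the table, 35.7% hold GGGCGG, 24.9% hold TATAA, and the median share of G and C is 52.7%. A match is a run of letters and not a measured binding site.

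All values are log2 intensities, normalised within and between arrays, so a step of 1 is a 2-fold difference in brightness. The brightness of a probe cannot be set against that of another probe. Each array carried 2 tumours, 1 in each dye, all arrays lay on 1 slide with 1 scan time, and 47.5% to 56.5% of spots per channel were well above background. As a check of the tissue, all 5 luminal epithelial markers (Krt8, Krt18, Krt19, Epcam and Cdh1) passed the filter, and their mean level lay between 12.34 and 12.90 in every tumour. Tumour numbers below only name tumours within a group. In bulk tumour RNA, fewer cells of a type and less RNA per cell cannot be told apart.

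The ligand, Tnfsf11 (probe A_55_P2039359, NM_011613), was not well above background in 15 of 16 tumours. Passage 2 tumours read 6.30, 6.13 and 6.30 with prior and current RANK-Fc, 6.29, 6.24 and 6.36 with prior RANK-Fc, 6.22, 6.18 and 6.17 with current RANK-Fc, and 6.35 and 6.13 in controls. Passage 1 tumours read 6.33, 6.33 and 6.51 with RANK-Fc, against 6.34 and 6.16 in controls. The highest reading, in passage 1 RANK-Fc tumour 3, was the only one marked as well above background. The readings of passage 2 as a whole (6.13 to 6.36) and of passage 1 (6.16 to 6.51) overlapped. The spot was 1.10 to 1.77 times as bright as its local background. The dimmest probes called well above background in each channel read 5.51 to 6.42, which spans all readings of the ligand but the highest. The ligand therefore did not enter the filtered test and is given no fold change, and a difference in its RNA between groups was not detectable with this probe.

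The receptor, Tnfrsf11a (probe A_55_P2325803, NM_009399), was well above background in 16 of 16 tumours, at 41.9 to 182 times its local background. Passage 2 tumours read 12.40, 12 and 12.17 with prior and current RANK-Fc and 11.98, 11.90 and 12.18 with prior RANK-Fc. Those without prior RANK-Fc read 12.31, 12.40 and 13.01 with current RANK-Fc, and 12.60 and 12.59 in controls. Passage 1 tumours read 11.86, 11.61 and 12 with RANK-Fc, against 11.88 and 11.81 in controls. All 5 passage 2 tumours without prior RANK-Fc lay above all 5 passage 1 tumours. The 6 passage 2 tumours with prior RANK-Fc lay in between, from 11.90 to 12.40, and overlapped both of the other sets. How many of all probes separate sets of tumours in this way was not counted.

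The group means of Tnfrsf11a, from high to low, were 12.59 ± 0.01 in passage 2 controls (SD, n = 2), 12.57 ± 0.38 with current RANK-Fc (SD, n = 3), 12.19 ± 0.20 with prior and current RANK-Fc (SD, n = 3), 12.02 ± 0.15 with prior RANK-Fc (SD, n = 3), 11.84 ± 0.05 in passage 1 controls (SD, n = 2) and 11.83 ± 0.20 in passage 1 with RANK-Fc (SD, n = 3). The pairs of neighbours that overlapped tumour by tumour were passage 2 control with current, prior and current with prior, and both passage 1 groups. Current RANK-Fc tumours (from 12.31) also overlapped prior and current tumours (up to 12.40), while prior tumours lay above passage 1 controls by a gap of less than the spread of the prior group.

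**Figure D1:**
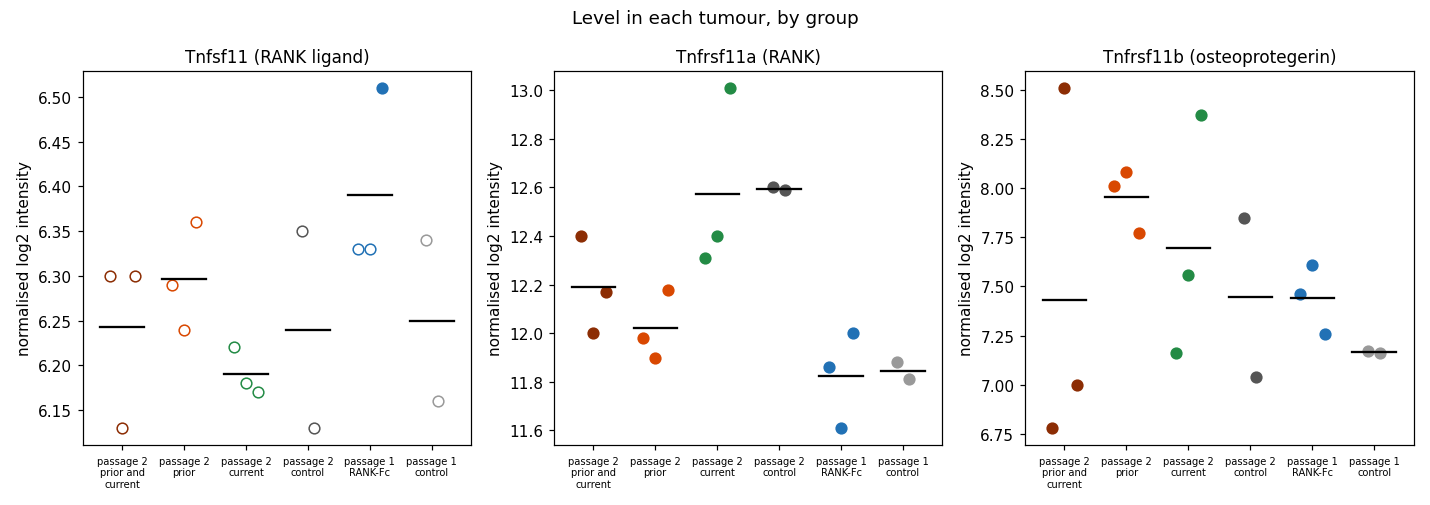
Each point is the normalised log2 intensity of 1 tumour, the horizontal bar is the group mean, and open points are spots not well above background. The vertical axes differ between the 3 genes. For Tnfrsf11a the current and control tumours of passage 2 lie between 12.31 and 13.01, above all passage 1 tumours, while Tnfsf11 is open in 15 of 16 tumours.

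Tnfrsf11a was higher in passage 2 tumours without prior RANK-Fc than in passage 1. The fitted log2 difference, averaged over the untreated and the currently treated background, was 0.79 ± 0.15 (SE), with a 95% interval from 0.47 to 1.10, that is 1.73-fold (1.38 to 2.15). Its adjusted p was 0.00562 by limma with Benjamini-Hochberg adjustment. In this comparison 9.23% of the 28494 probes tested passed, 946 of them higher and 1684 lower, so a call as such was common, and 2.57% of probes had a smaller p than Tnfrsf11a. In controls alone the difference was 0.83 ± 0.22 (SE; adjusted p = 0.0835), where 1.87% of probes passed. An exact two-sided permutation test within each background gave p = 0.0167 (0.060 after adjustment over 6 such tests). That is the smallest p the two-sided test allows in this comparison, because exchanging all labels only turns the sign of the difference. From the log ratios of the 8 arrays alone the difference was 1.02 and did not pass (adjusted p = 0.229), in a fit that called 0 probes. Passage and the time, host and processing of its tumours cannot be told apart.

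Passage 2 tumours that had prior RANK-Fc were compared with passage 1 in the same way, a comparison added after the values were seen. The difference for Tnfrsf11a was 0.27 ± 0.14 (SE), with an interval from -0.04 to 0.57 and an adjusted p of 0.292, where 4.62% of probes passed.

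Prior RANK-Fc was set against no prior RANK-Fc within passage 2. Averaged over both backgrounds, the Tnfrsf11a difference was -0.52 ± 0.14 (SE), a ratio of 0.697, with an interval from -0.82 to -0.22. It did not pass across all probes (unadjusted p = 0.00252, adjusted p = 0.145), where 0.2% of probes did, 46 higher and 11 lower. Prior RANK-Fc alone gave -0.60 ± 0.19 (SE; adjusted p = 0.494), where 0.00351% of probes passed. Its 3 tumours (11.90 to 12.18) lay below the 2 controls (12.59 and 12.60). The share of all probes whose values separate in this way was not counted. Prior and current RANK-Fc together gave -0.48 ± 0.20 (SE; adjusted p = 0.554) against the same controls, where 0.0421% of probes passed. The exact permutation test within backgrounds gave p = 0.02 (0.060 after adjustment), with 0.005 as the smallest p it allows. These comparisons share the passage 2 control and current tumours with the passage comparison, so the 2 results are not independent.

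Current RANK-Fc left no detectable difference in Tnfrsf11a. The difference averaged over 3 backgrounds was 0.04 ± 0.11 (SE), with an interval from -0.20 to 0.28, so a change beyond 1.21-fold up or a ratio below 0.873 lay outside it. By background it was 0.05 ± 0.19 in passage 1, -0.04 ± 0.19 in passage 2 and 0.11 ± 0.17 after prior RANK-Fc (SE; adjusted p = 1, 1 and 0.898). In each of these 4 comparisons 0% of the probes passed in limma, while 1859 of the averaged comparison and 486, 1089 and 2555 of the separate ones had an unadjusted p under 0.05. The effect of current RANK-Fc did not pass as different with and without prior RANK-Fc (0.15 ± 0.25; adjusted p = 0.981) or between passages (-0.09 ± 0.27; adjusted p = 1), and 0% of probes passed in either test, with 1634 and 483 at an unadjusted p under 0.05. None of these unadjusted counts was set against the number expected with no difference, so they are not read as effects.

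**Figure D2:**
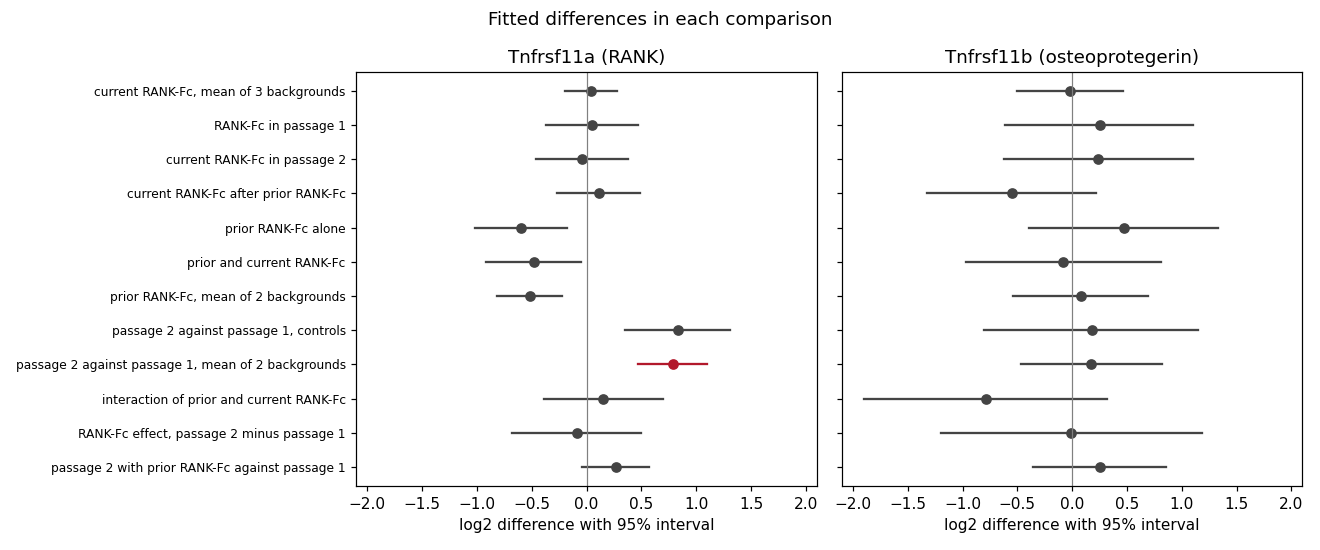
Points are fitted log2 differences for Tnfrsf11a and Tnfrsf11b in the 12 comparisons, lines are 95% intervals, and red marks an adjusted p under 0.05. The passage comparison averaged over 2 backgrounds is the only red point, at 0.79 for Tnfrsf11a, and every interval of Tnfrsf11b crosses 0.

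Tumours that lay on the same array were also set against each other directly. These are the same normalised values that entered the fit, so the pairs are no further check. The share of all probes with the same signs was not counted. There were 3 arrays that paired a passage 2 with a passage 1 tumour, and Tnfrsf11a was higher in the passage 2 tumour on each. The difference was 0.45 for a current tumour over a passage 1 RANK-Fc tumour, 0.36 for a prior tumour over a passage 1 RANK-Fc tumour, and 0.59 for a prior and current tumour over a passage 1 control. Another 2 arrays paired a tumour with prior RANK-Fc and a tumour without, and Tnfrsf11a was lower in the tumour with it on each. The difference was -0.70 for a prior tumour against a control and -1.01 for a prior and current tumour against current tumour 3. The arrays that paired current RANK-Fc with its own control gave 0.13, -0.19 and -0.01, of both signs.

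**Figure D3:**
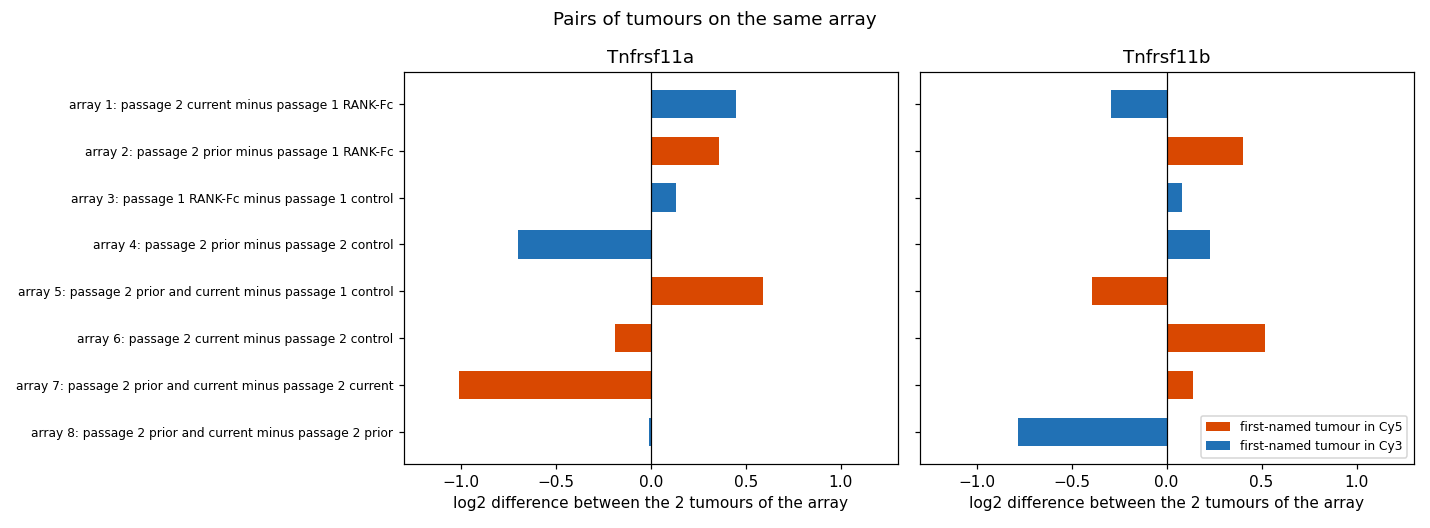
Bars are the log2 difference between the 2 tumours of each array, first-named minus second-named, and the colour gives the dye of the first-named tumour. For Tnfrsf11a the 3 arrays that set passage 2 against passage 1 give 0.36 to 0.59, and arrays 4 and 7, which set prior RANK-Fc against none, give -0.70 and -1.01.

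Osteoprotegerin, Tnfrsf11b (probe A_52_P106620, NM_008764), was well above background in 16 of 16 tumours, at 1.87 to 7.59 times its local background. Passage 2 tumours read 6.78, 8.51 and 7.0 with prior and current RANK-Fc, 8.01, 8.08 and 7.77 with prior RANK-Fc, 7.16, 7.56 and 8.37 with current RANK-Fc, and 7.85 and 7.04 in controls. Passage 1 tumours read 7.46, 7.61 and 7.26 with RANK-Fc, against 7.17 and 7.16 in controls. The highest and the lowest tumour of all belonged to the same group, prior and current RANK-Fc, and passage 2 tumours (SD 0.58, n = 11) were more spread out than passage 1 tumours (SD 0.19, n = 5).

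The group means of Tnfrsf11b, from high to low, were 7.95 ± 0.16 with prior RANK-Fc (SD, n = 3), 7.70 ± 0.61 with current RANK-Fc (SD, n = 3), 7.44 ± 0.57 in passage 2 controls (SD, n = 2), 7.44 ± 0.18 in passage 1 with RANK-Fc (SD, n = 3), 7.43 ± 0.94 with prior and current RANK-Fc (SD, n = 3) and 7.17 ± 0.01 in passage 1 controls (SD, n = 2). All neighbours in this order overlapped tumour by tumour.

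No comparison of Tnfrsf11b passed. Averaged over 3 backgrounds, current RANK-Fc gave -0.02 ± 0.22 (SE; interval -0.50 to 0.46). In passage 1 it gave 0.25 ± 0.39, in passage 2 0.24 ± 0.39, and after prior RANK-Fc -0.55 ± 0.35 (SE; adjusted p = 1, 1 and 0.69). The difference between the effects with and without prior RANK-Fc was -0.79 ± 0.51 (SE; adjusted p = 0.913). Prior RANK-Fc gave 0.08 ± 0.28 (interval -0.54 to 0.69) and passage gave 0.17 ± 0.30 (interval -0.47 to 0.82), with adjusted p of 0.94 and 0.772. The residual SD of the probe was 0.53, above that of 96.7% of the probes tested, against 0.246 for Tnfrsf11a and a median of 0.167. A change short of the interval bounds could therefore not be seen, and the bounds hold on the scale with the offset. The exact permutation p was 0.992 for current RANK-Fc, 0.775 for prior RANK-Fc and 0.417 for passage.

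Receptor and decoy showed little relation: across the 16 tumours Tnfrsf11a and Tnfrsf11b correlated at r = 0.10 (Spearman -0.05), a description of tumours that share arrays in pairs.

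The 14116 genes with complete values were ranked by how closely they followed each gene over the 16 tumours, with the dye difference removed. Closest to Tnfrsf11a were Cyp1b1, a cytochrome P450 (r = 0.95), Pald1 (0.93), Tmem37 (0.93), Cel, a lipase also found in milk (0.92), and Lalba, the milk protein alpha-lactalbumin (0.91). Cyp1b1 averaged 8.91 with prior and current RANK-Fc, 8.91 with prior RANK-Fc, 9.98 with current RANK-Fc, 10.13 in passage 2 controls, 7.58 in passage 1 with RANK-Fc and 8.12 in passage 1 controls. Lalba averaged 15.69, 15.04, 16.61 and 16.18 in the same 4 passage 2 groups, and 14.91 and 14.79 in passage 1. Both had their highest means in the 2 passage 2 groups without prior RANK-Fc, where Tnfrsf11a had its own. Farthest in the other direction were Vamp1, a synaptobrevin (r = -0.94), Amz2 (-0.93) and Ccdc107 (-0.93). These 8 genes were picked for their likeness over the same tumours, so the values are a description. Without current tumour 3, which had the highest Tnfrsf11a, the 5 positive correlations were 0.87 to 0.93 and the 3 negative ones -0.95 to -0.89.

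Closest to Tnfrsf11b were Whrn, which encodes the scaffold protein whirlin (r = 0.94), Nfatc4, a calcineurin-dependent transcription factor (0.90), Kng2 and Kng1, the near-identical kininogen genes whose probes may share signal (0.84 each), and Cnfn (0.81). Whrn read 6.90, 8.05 and 7.0 with prior and current RANK-Fc, where Tnfrsf11b also had its widest spread. The 2 tumours with the highest Tnfrsf11b, prior and current tumour 2 and current tumour 3, lay on the same array, number 7. Without that array the correlations were 0.88 for Whrn, 0.79 for Nfatc4, 0.68 for Kng2, 0.69 for Kng1 and 0.60 for Cnfn, over 14 tumours. Kng2 was not well above background in every tumour. Farthest in the other direction were Zbtb8a (r = -0.90), Lamtor4 (-0.90) and Nap1l3 (-0.84), which had -0.82, -0.85 and -0.84 without array 7.

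**Figure D4:**
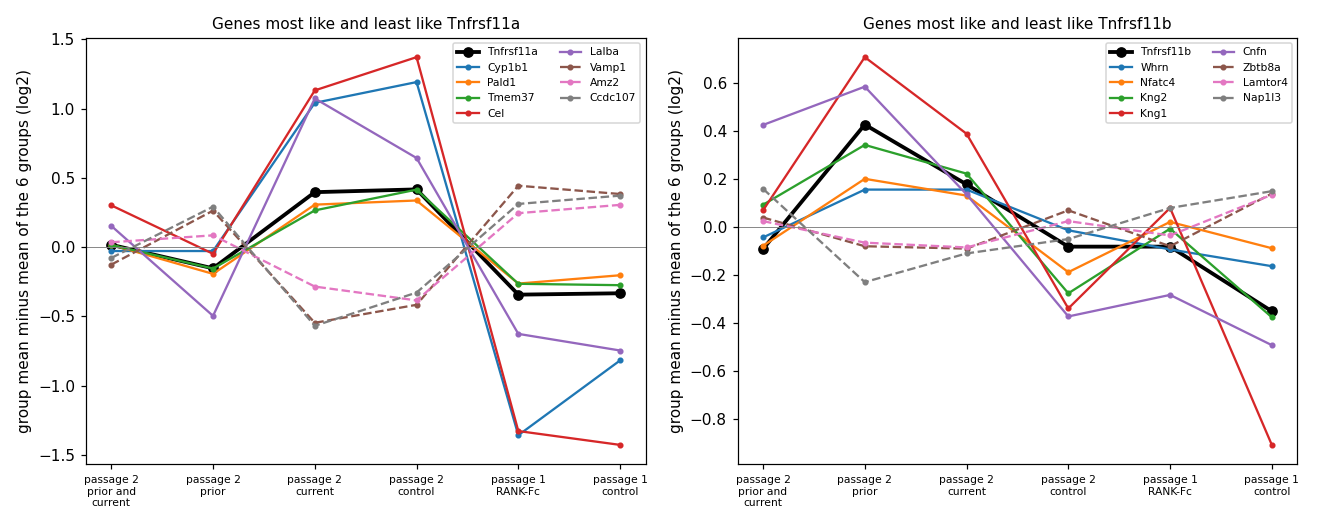
Lines give each gene's group mean minus the mean of its 6 group means, in log2 units. The black line is Tnfrsf11a or Tnfrsf11b, solid lines are the 5 genes most like it and dashed lines the 3 least like it. Cyp1b1, Cel and Lalba are highest in current and control tumours of passage 2, as Tnfrsf11a is.

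Genes of the same pathway and family were counted in 7 lists, 93 genes in all, of which 80 were measured. No list gene passed for current RANK-Fc or prior RANK-Fc in any comparison, and few of all measured genes did. The share of all measured genes was 0% in each comparison of current RANK-Fc. It was 0.00708% for prior RANK-Fc alone, 0.0708% for prior and current RANK-Fc, and 0.283% for prior RANK-Fc averaged over 2 backgrounds. In the passage comparison averaged over 2 backgrounds 6 rose and 4 fell, 12.5% of the list, against 11.3% of all measured genes, and the median difference was 0.03. For passage in controls alone 0 rose and 1 fell, 1.25% of the list against 2.6% of all measured genes. That gene was Itgb3 (-2.69, adjusted p = 0.00405 by limma), so the other genes named below did not pass there.

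Downstream of RANK, 16 of 17 adaptors and kinases were measured, and 1 rose and 2 fell with passage. Traf1, a TRAF adaptor, averaged 8.07 with prior and current RANK-Fc, 8.56 with prior, 8.40 with current and 8.51 in passage 2 controls, against 9.15 in passage 1 with RANK-Fc and 9.71 in passage 1 controls, and it fell by 0.94 (adjusted p = 0.0351). Cyld, a deubiquitinase that restrains NF-kB signalling, fell by 0.44 (adjusted p = 0.0427), and Ikbkg, the regulatory subunit of the IKK complex, rose by 0.31 (adjusted p = 0.0499). Of 12 measured NF-kB subunits and targets, Tnfaip3, an inhibitor induced by NF-kB, rose by 0.62 (adjusted p = 0.0442) and Nfkb1, which encodes p105 and p50, fell by 0.35 (adjusted p = 0.0408).

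Of 7 measured osteoclast genes under RANK control, Ocstamp, needed for osteoclast fusion, rose by 0.87 (adjusted p = 0.00767) and Itgb3, the beta3 integrin, fell by 2.29 (adjusted p = 0.000177). Itgb3 averaged 9.21 with prior and current RANK-Fc, 10.05 with prior, 9.30 with current and 8.91 in passage 2 controls, against 11.23 in passage 1 with RANK-Fc and 11.71 in passage 1 controls. All 11 passage 2 tumours lay below all 5 passage 1 tumours, and the share of genes that separate so was not counted. These genes are also made by cells other than osteoclasts.

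Among 11 upstream regulators of the ligand or decoy, Stat5a, a transcription factor of prolactin signalling, rose by 0.72 (adjusted p = 0.0378) and Pthlh, the parathyroid hormone-related peptide, rose by 0.96 (adjusted p = 0.0118). Pthlh averaged 8.05 with prior and current RANK-Fc, 7.09 with prior, 7.63 with current and 7.48 in passage 2 controls, against 6.41 in passage 1 with RANK-Fc and 6.64 in passage 1 controls. It was well above background in 2 of 5 passage 1 tumours, so the size of its difference rests partly on readings at background. The filter admitted Pthlh only through the passage 2 groups, where it was high. Its calls against passage 1, here and below, are therefore not independent of the filter. Among 5 other binding partners none passed in that comparison: Lgr4, a second receptor for RANK ligand, had 0.28 ± 0.08 (SE; adjusted p = 0.0514), and Vwf, a binding partner of osteoprotegerin, had -0.54 ± 0.17 (SE; adjusted p = 0.0707). Of 19 other receptors of the family, Tnfrsf19 rose by 0.98 (adjusted p = 0.00964). Of 12 other ligands of the family 0 passed, with a median of 0.15 for passage and -0.27 for prior RANK-Fc, against -0.01 and 0 over all measured genes. For passage, 10 estimates lay above 0, among them Tnfsf9 (0.27, adjusted p = 0.136) and Tnfsf13b (0.47, adjusted p = 0.155). For prior RANK-Fc, 3 lay above 0, while Fasl had -0.44 (adjusted p = 0.342) and Ltb, lymphotoxin beta, -0.81 ± 0.37 (SE; adjusted p = 0.372).

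In the added comparison of passage 2 tumours with prior RANK-Fc against passage 1, 2 list genes rose and 4 fell, 7.5% of the list against 5.63% of all measured genes. Tnfrsf19 (1.42) and Pthlh (1.00) rose, and Itgb3 (-1.86), Traf1 (-1.19), Vwf (-0.69) and Pth1r, the receptor of Pthlh (-0.44), fell (adjusted p from 0.00144 to 0.0413). In this added comparison, with each tumour left out in turn, Itgb3 and Tnfrsf19 passed in 16 of 16 fits, Traf1 and Pthlh in 14, Vwf in 7 and Pth1r in 3. In the passage comparison averaged over 2 backgrounds, Itgb3 and Ocstamp passed in 16 of 16 fits, Pthlh and Tnfrsf19 in 14, Stat5a in 9, Traf1 in 7, Nfkb1 in 6, Tnfaip3 in 5, and Cyld and Ikbkg in 4. The count of 10 in that averaged comparison fell to 3 without passage 2 control tumour 2, 4 without passage 1 RANK-Fc tumour 3, 5 without passage 1 RANK-Fc tumour 2, passage 1 control tumour 1 or passage 2 control tumour 1, and 6 without passage 2 prior and current tumour 1, prior tumour 1, current tumour 2 or passage 1 RANK-Fc tumour 1.

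**Figure D5:**
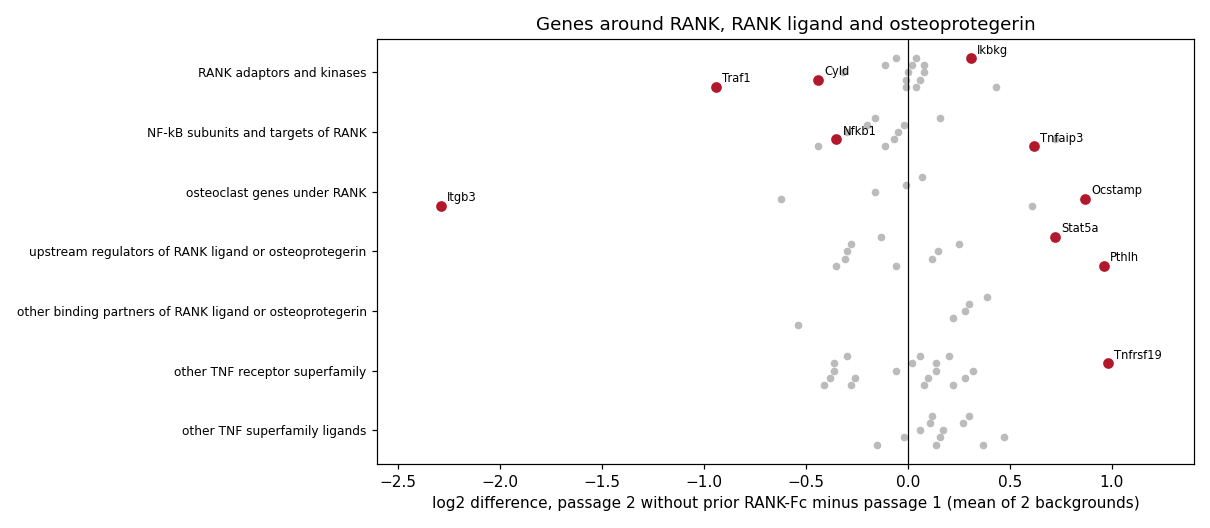
Each point is a measured gene of the 7 lists, and the horizontal axis is its fitted log2 difference between passage 2 without prior RANK-Fc and passage 1. Red points passed the test and are named. They lie on both sides of 0, from -2.29 for Itgb3 to 0.98 for Tnfrsf19.

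Markers of cell types that could carry these genes were measured in the same tumours. In the passage comparison averaged over 2 backgrounds, where 11.3% of all measured genes passed, 2 of 5 hormone-sensing luminal markers fell, Foxa1 (-1.65, adjusted p = 0.00115) and Cited1 (-1.33, adjusted p = 0.00285). Of the 5, 0 had estimates above 0 (median -0.35, against -0.01 over all measured genes). Foxa1 was well above background in 2 of the 5 passage 2 tumours without prior RANK-Fc, so the size of its difference rests partly on readings at background. The filter admitted Foxa1 only through the passage 1 groups, where it was high, so its call is not independent of the filter. Of 5 luminal progenitor markers, Kit fell by 1.03 (adjusted p = 0.00284) and Elf5, a factor of alveolar progenitors, rose by 0.57 (adjusted p = 0.025), and passed in 10 of 16 fits when each tumour was omitted (adjusted p up to 0.0999). Of 6 basal or myoepithelial markers, of which 3 had estimates above 0, Oxtr fell by 1.85 (adjusted p = 0.000655). No member of the T cell, macrophage, fibroblast, endothelial or adipocyte lists passed for passage, and 0 of 3 B cell markers were measured.

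The macrophage, T cell, fibroblast, endothelial and adipocyte lists, of which 0 members passed in any of the 12 comparisons, are given beside the receptor. All 4 macrophage markers had lower estimates with prior RANK-Fc (median -0.63, 0 past the test), and their mean level was 9.79 to 9.99 with prior and current RANK-Fc and 9.71 to 10.31 with prior RANK-Fc, against 9.94 to 11.24 with current RANK-Fc and 10.05 to 10.49 in controls. Over the 11 passage 2 tumours the macrophage mean correlated with Tnfrsf11a at r = 0.76, but over all 16 tumours at 0.32, and at -0.10 without the 2 tumours farthest from the median. The passage 2 value was picked as the highest of all lists and was not particular to macrophages. Upstream regulators had 0.65, endothelial markers 0.62 and other binding partners 0.60, down to 0.04 for luminal markers. All 6 T cell markers likewise had lower estimates with prior RANK-Fc (median -0.56, 0 past the test), and against passage 1 the estimates were higher for 6 of 6 in passage 2 without prior RANK-Fc (median 0.32) and for 1 of 6 with it (median -0.25). Fibroblast markers had a median of -0.20 for prior RANK-Fc averaged over 2 backgrounds, but 0.58 for prior RANK-Fc alone and -0.27 for prior and current RANK-Fc. Endothelial markers had medians of -0.13, -0.08 and 0.04 in the same comparisons. All 4 adipocyte markers had lower estimates in passage 2 without prior RANK-Fc than in passage 1 (median -1.13), as had 5 of 6 fibroblast markers (median -0.84), with 0 past the test. Their part in the Tnfrsf11a differences was not tested.

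Current tumour 3 of passage 2 had the highest Tnfrsf11a of all (13.01), the highest fibroblast mean (13.07), the highest macrophage mean (11.24) and a raised level of the muscle marker Acta1 (9.50, against 6.46 to 7.20 in every tumour but prior tumour 1, which had 10.49). Without it the passage difference of Tnfrsf11a was 0.66 (adjusted p = 0.00357), the difference in controls alone was 0.80 and passed (adjusted p = 0.0232), and the prior difference was -0.38 (adjusted p = 0.238). Without prior tumour 1 the passage difference was 0.79 (adjusted p = 0.00877) and the prior difference -0.52 (adjusted p = 0.245).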

How the data were processed

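Total RNA of 16 tumours was hybridised in pairs to 8 Agilent arrays, 1 tumour in Cy5 and 1 in Cy3. Per the file headers, Agilent Feature Extraction 10.7.3.1 quantified the scans. What was deposited is median intensity and background intensity per spot, processed intensity values and a log10 ratio of red over green for each array, per the file headers, with none normalised between arrays. Other quality marks, coded 0 or 1 per spot, were deposited too: they say whether a spot is bright enough, saturated or uneven. A deposited table of normalised values has 8 columns whose names match no label and was not used.

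Flagged outlier spots were set to missing (239 to 337 per array). Median intensities were background corrected (normexp, offset 50), normalised by loess within arrays and Aquantile between arrays, and taken to log2 (limma 3.58.1, R 4.3.3). Probes were named through RefSeq accessions, 28026 of 55681 with a symbol. The filter kept 28494 probes, those that all tumours of 1 or more groups showed well above background, and a dimmer probe was not tested. The direction of the log10 ratio was checked against the red and green processed intensities (lowest r of an array 0.855).

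All 16 channels entered 1 linear model of 6 groups and dye, with the correlation within a spot estimated at 0.412 by limma and taken as 0.221 after a correction for bias on simulated data. Moderated tests had 9 residual and 3.49 prior degrees of freedom, with Benjamini-Hochberg adjustment over all 28494 probes of each of 12 comparisons and a threshold of 0.05. Exact permutation tests were run for the 2 tested genes and 3 comparisons, and left out Tnfsf11, which did not pass the filter. The number of arrays limits the precision. The fit was tested on simulated data.

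The 3 genes, the lists and the comparisons were chosen with earlier results of these data known. Named genes are list members past the test in any comparison, up to 4 of smallest p in a list where none passed, and the 5 most and 3 least correlated genes per tested gene. List genes are represented by their brightest probe. Alternatives changed background correction, normalisation, filter, dye term, within-spot correlation, moderation, probe choice, samples in the fit, and left out each tumour. Figures were drawn with matplotlib 3.10.9.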

Additional observations from a re-analysis of the deposited data

How the results depend on the processing

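The passage difference of Tnfrsf11a averaged over 2 backgrounds stayed past the threshold in 11 of 12 other settings and in all 16 fits that left out a tumour (0.66 to 0.88, adjusted p 0.00357 to 0.0329). From the log ratios of the 8 arrays alone it was 1.02 with an adjusted p of 0.229, in a fit with fewer degrees of freedom that called 0 of the probes. In controls alone it ranged from 0.62 to 1.26 in other settings and passed in 0 of 12, and with a tumour left out it ranged from 0.79 to 0.87 and passed without current tumour 3 only. The prior difference of Tnfrsf11a lay between -0.72 and -0.28 in other settings and between -0.59 and -0.38 with a tumour left out, and never passed (adjusted p 0.0699 to 0.558).

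Signs turned only for differences that did not pass, and the cause was not tested. With median centring, Tnfrsf11b gave 0.02 for current RANK-Fc and 0.08 for prior and current RANK-Fc, and Tnfrsf11a gave 0.00 in passage 1, 0.01 for current RANK-Fc in passage 2 and 0.01 for the difference of effects between passages. With quantile normalisation Tnfrsf11b gave 0.00 for current RANK-Fc. With log ratios alone Tnfrsf11a gave -0.15 for current after prior RANK-Fc, and Tnfrsf11b gave -0.34 for passage in controls, -0.27 for passage, -0.14 for passage after prior RANK-Fc and 0.14 for the difference of effects, which was 0.01 with no background subtraction, 0.00 with no filter and 0.01 with the uncorrected correlation. With a tumour left out, Tnfrsf11a ranged from -0.02 to 0.11 for current RANK-Fc, -0.04 to 0.15 in passage 1, -0.25 to 0.13 in passage 2, -0.01 to 0.24 after prior RANK-Fc, -0.01 to 0.40 for the interaction and -0.29 to 0.06 for the difference of effects. Tnfrsf11b ranged from -0.16 to 0.14 for current RANK-Fc, -0.14 to 0.53 for it in passage 2, -0.54 to 0.28 for prior and current RANK-Fc, -0.18 to 0.30 for prior RANK-Fc, -0.16 to 0.51 for passage in controls, -0.01 to 0.33 for passage and -0.37 to 0.30 for the difference of effects.

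Probe counts moved more. The count for passage was 2630, with 0 to 2853 in other settings and 1082 to 3131 with a tumour left out, that for prior RANK-Fc was 57, with 0 to 133 and 14 to 246, that for passage in controls was 534, with 0 to 829 and 1 to 674, and that for passage after prior RANK-Fc was 1315, with 0 to 1698 and 186 to 1505. The passage count was 1082 without passage 2 control tumour 2, 1345 without passage 1 control tumour 1, 1666 without passage 2 control tumour 1 and 1684 without passage 1 RANK-Fc tumour 2. The count in controls was 1 without passage 2 control tumour 2, and the prior count was lowest without current tumour 3 (14) and highest without current tumour 1 (246). The count for passage after prior RANK-Fc was lowest without passage 1 control tumour 1 (186). Prior RANK-Fc alone called 1 probe, with 0 to 3 in either kind, and prior and current RANK-Fc 12, with 0 to 18 and 0 to 20. The 10 pathway genes were 4 with no filter, 5 with no dye term and 0 from log ratios alone. Tested with no filter, Tnfsf11 passed in 0 of 12 comparisons (limma; smallest unadjusted p 0.0685, smallest adjusted p 0.767), from readings at background. No paired analysis was possible because the labels give no replicate numbers that could serve as a block. The pairing of tumours on arrays did enter every fit, as the correlation within a spot, and the fit on log ratios alone. Signal over background limits the ligand, and 2 or 3 tumours a group limit the rest.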
